A study of Mus musculus with 12 samples.

Results

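The 10 genes described here are 7 Toll-like receptors (Tlr1, Tlr2, Tlr4, Tlr7, Tlr8, Tlr9 and Tlr13), the co-receptor Cd14, the adaptor Myd88 and the endosomal chaperone Unc93b1. They were taken by symbol from a table of 18467 genes, with no threshold on a value, and all 10 passed the filter on low counts that left 12882 genes for testing. The transcripts were measured by bulk RNA sequencing of macrophages sorted from the femur and tibia of mice, 3 libraries from different mice in each of 4 groups. General macrophages were sorted as CD11b+F4/80+ cells and niche macrophages as VCAM1+CD163+CCR3+ cells, each from normal and from metastatic marrow. The metastatic marrow came from female Albino B6 mice injected at 8 weeks of age through the caudal artery with E0771, a mouse breast cancer cell line, and the normal marrow from healthy controls, whose age the labels do not give. Both sorts carry the words general macrophages in their sample titles, so the population was assigned from the antigens used to sort it.

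Toll-like receptors recognise conserved molecules of microbes and, in some settings, of damaged host cells. Tlr1, Tlr2 and Tlr4 sit at the cell surface and bind bacterial lipoproteins and lipopolysaccharide, while Tlr7, Tlr8, Tlr9 and Tlr13 bind nucleic acids inside endosomes, where Unc93b1 delivers them. Most Toll-like receptors signal through Myd88, and in macrophages of the marrow, as elsewhere, that signal leads to NF-kB and interferon regulatory factors and to the release of cytokines.

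Levels are given as CPM, counts scaled by library size with TMM factors, and differences as log2 fold changes ± their standard error from edgeR's quasi-likelihood fit. A gene is called where the Benjamini-Hochberg adjusted p over all tested genes is under 0.05. Library totals lay between 13687957 and 30332442 counts, so that 3 counts corresponded to 0.109 to 0.243 CPM. The summed level of 11 macrophage markers was 142 to 232 CPM in general macrophages of normal marrow and 111 to 241 CPM in those of metastatic marrow, with Timd4 at or under 3 counts in both, against 2753 to 3594 and 1308 to 2288 CPM in niche macrophages. Summed over 15 neutrophil markers, the level was 22219 to 23890 and 15736 to 25202 CPM in general macrophages and 11213 to 13200 and 11608 to 12466 CPM in niche macrophages, above the macrophage sum in every library. The 10 monocyte markers summed to 12052 to 12945 and 16841 to 18775 CPM in general macrophages and 4422 to 5763 and 8105 to 10553 CPM in niche macrophages, with Ace at or under 3 counts in the niche libraries of normal marrow. B and plasma cell markers (11 in the table) summed to 161 to 265 and 97.2 to 127 CPM against 1270 to 2317 and 1096 to 3925 CPM, with Cd79a, Igll1 and Mzb1 at or under 3 counts in every general library. The 11 erythroid markers summed to 16.2 to 99.5 and 69.8 to 107 CPM in general macrophages and 796 to 1188.5 and 648 to 1648 CPM in niche macrophages, with Klf1 and Epor at or under 3 counts in every general library. The part of these other cell types in the results below was not tested. In bulk libraries, fewer cells of a type and less RNA per cell cannot be told apart.

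Cd14, which hands lipopolysaccharide to Tlr4, was the only one of the 10 genes to pass the test in any comparison. In general macrophages of normal marrow it had 1, 1 and 4 counts (0.0687, 0.0593 and 0.200 CPM), at or next to the limit of 3 counts. In niche macrophages of normal marrow it had 557, 1074 and 297 counts (45.2, 53.4 and 14.9 CPM). The gene was thus nearly absent from every library of the one population and present in every library of the other. It rose by 8.34 ± 2.13 on the log2 scale from general to niche macrophages (edgeR adjusted p = 0.0426), a fitted value that rests on very few counts. From the summed counts, 1928 against 6, the ratio of levels was 316 with a 95% exact Poisson interval of 145 to 861, which covers counting error only. A similar separation was not seen in metastatic marrow, where general macrophages had 290, 211 and 503 counts (10.6, 9.54 and 18.4 CPM) and niche macrophages 363, 650 and 1 (18.3, 28.4 and 0.0370 CPM). One of the niche libraries thus lacked the transcript almost entirely, and the populations overlapped (log2 fold change 0.28 ± 1.53, edgeR adjusted p = 1.00).

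The call on Cd14 was close to the threshold. When each of the 6 libraries compared was left out in turn, the edgeR adjusted p lay between 0.0302 and 0.162 and the call held only without niche library C. It was 0.158, 0.162 and 0.119 without general library 1, 2 or 3, and 0.0583 and 0.0661 without niche library A or B. With only the 6 libraries in the fit it was 0.0922. Cd14 is also expressed by monocytes and neutrophils, whose marker sums in each group are given above and whose part in this result was not tested. Cd14 lies on chromosome 18, and none of the 50-base words of its transcript, read in the sense direction, occurs in a transcript of another gene of the annotation.

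**Figure D1:**
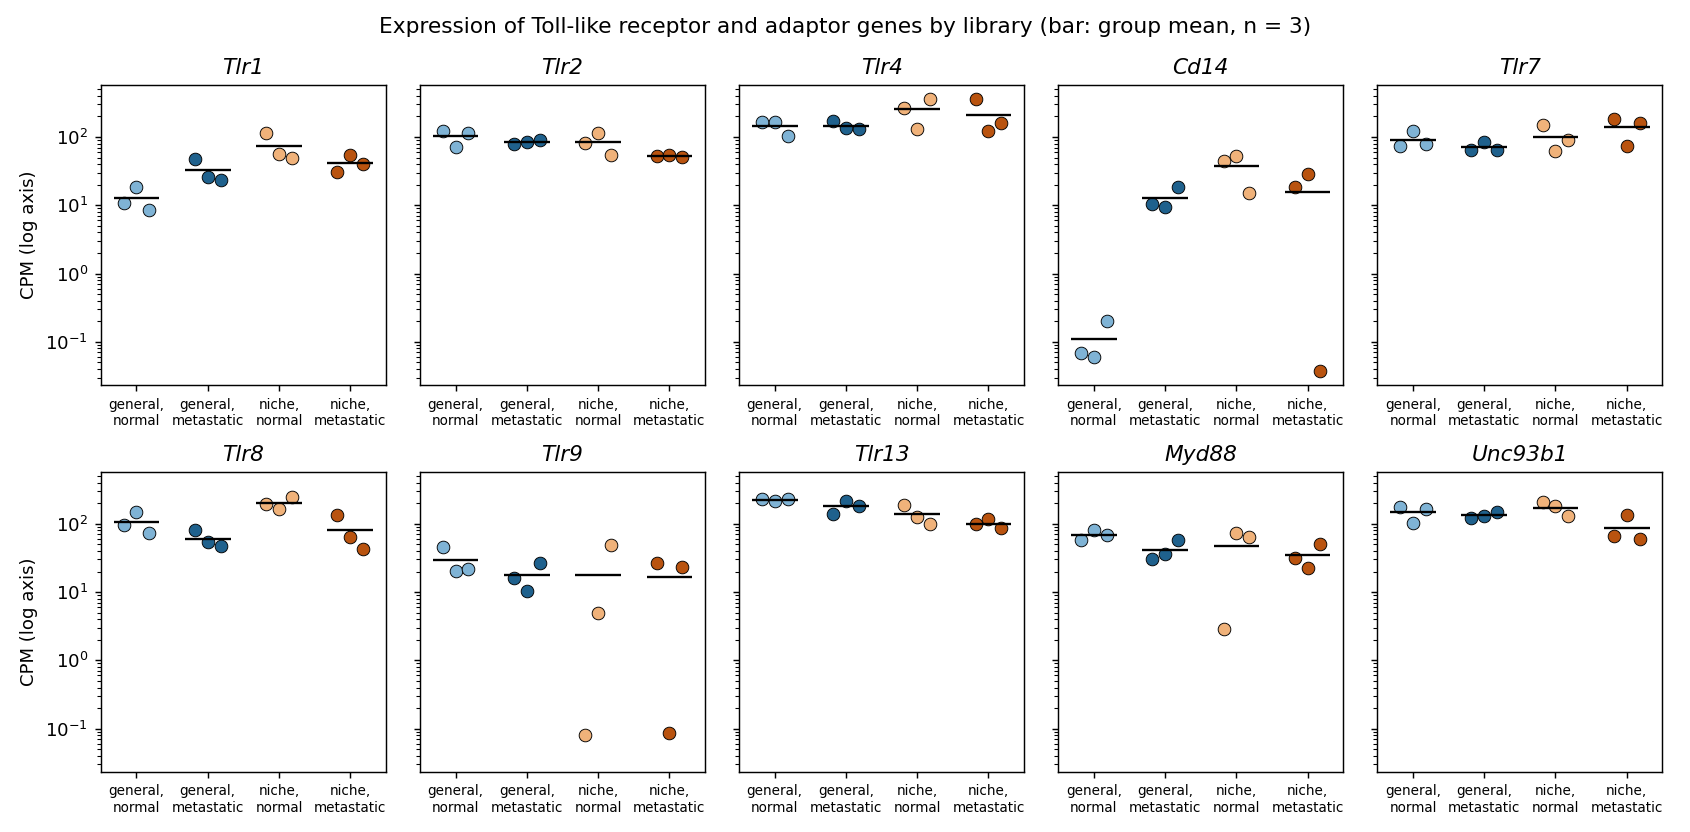
Level of each of the 10 genes in each library, in CPM on a log axis, by group (points are libraries, bars are group means, n = 3). Cd14 is near 0.1 CPM in the 3 general libraries of normal marrow, and Tlr9 is under 0.1 CPM in 2 niche libraries.

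The comparison of populations in normal marrow gave 1 called gene of the 10, where 2.47% of all tested genes were called and 1.5% were called higher. DESeq2 called 2 of the 10 (Tlr1 and Cd14) and 17.5% of all genes, and limma-voom 1 (Cd14) and 1.44%. The ranges of the populations did not overlap for 4 of the 10 (Cd14, Tlr1 and Tlr8 higher and Tlr13 lower in niche macrophages), against 18.9% of all tested genes (10% higher and 8.83% lower). An unadjusted p under 0.05 was reached by 3 of the 10, against 19% of all tested genes. The median log2 fold change of the 10 was 0.17 and that of all tested genes 0.19, and 6 of the 10 had a positive value. The median of the 10 genes thus lay next to that of the table, with Cd14 far above it.

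Promoters are shown for the 3 receptors whose ranges did not overlap between the populations in normal marrow. The sequences run from 250 bases before to 50 after the annotated start, are those of RefSeq on GRCm38.p6 and are written in the direction of transcription. Promoters of 6 of the 10 genes were matched in that table. Capitals mark matches, on either strand, to any of the motifs searched: PU.1 (AGGAAGT), interferon response (GAAA, any 2 bases, GAAA), AP-1 (TGANTCA), CRE (TGACGTCA), TATA box (TATAAA), GC box (GGGCGG) and NF-kB (GGG, any 2 bases, TTTCC).
Tlr1, chr5:64933509-64933808, minus strand: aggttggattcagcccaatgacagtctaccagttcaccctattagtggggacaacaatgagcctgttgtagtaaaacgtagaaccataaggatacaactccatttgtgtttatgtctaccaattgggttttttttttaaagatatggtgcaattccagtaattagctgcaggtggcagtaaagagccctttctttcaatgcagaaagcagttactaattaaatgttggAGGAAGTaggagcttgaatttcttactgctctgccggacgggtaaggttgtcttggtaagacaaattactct
Tlr8, chrX:167264280-167264579, minus strand: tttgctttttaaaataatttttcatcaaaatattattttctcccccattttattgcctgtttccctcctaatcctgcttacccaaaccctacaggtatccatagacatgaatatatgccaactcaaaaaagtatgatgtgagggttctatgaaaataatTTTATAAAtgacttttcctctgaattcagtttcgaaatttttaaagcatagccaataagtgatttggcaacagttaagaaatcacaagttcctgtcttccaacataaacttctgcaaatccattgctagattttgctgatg
Tlr13, chrX:106143025-106143324, plus strand: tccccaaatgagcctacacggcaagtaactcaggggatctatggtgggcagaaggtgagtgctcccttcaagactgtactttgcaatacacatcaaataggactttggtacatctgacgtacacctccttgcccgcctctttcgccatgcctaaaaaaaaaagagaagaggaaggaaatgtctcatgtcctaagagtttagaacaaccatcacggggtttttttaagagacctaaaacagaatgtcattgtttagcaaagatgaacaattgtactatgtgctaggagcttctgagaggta
The Tlr1 window held the PU.1 letters, named for the factor that drives myeloid genes, with their first base 22 bases before the start, and 9.35% of 32851 promoters of the same length hold them. A second annotated Tlr1 promoter in the table, chr5:64932650-64932949, held none of the 7 motifs and is not printed. In the Tlr8 window TATAAA and its reverse complement overlapped, their first bases 89 and 91 bases before the start, and 13.6% of promoters hold one of these. None of the 7 motifs was found in the Tlr13 window. Of the other promoters matched, that of Tlr2 held 2 GC boxes (35.7% of promoters), that of Tlr9 a PU.1 and an AP-1 match (AP-1 in 7.81% of promoters), and that of Myd88 an interferon response match GAAAGCGAAA with its first base 40 bases before the start (3.44% of promoters), a GC box and an overlapping pair of TATA matches. A match is a description of letters, and binding was not measured.

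Tlr1 forms the surface receptor for triacylated lipoproteins together with Tlr2, and its gene lies on the minus strand of chr5:64924679-64933563 (GRCm38). Its level was 10.8, 18.5 and 8.50 CPM in general and 115, 56.3 and 49.4 CPM in niche macrophages of normal marrow. Every niche library was above every general library, but the difference of 2.55 ± 0.80 did not pass (edgeR adjusted p = 0.111). In metastatic marrow the levels were 47.9, 26.1 and 23.3 CPM in general and 30.4, 55.1 and 40.9 CPM in niche macrophages, with overlapping ranges.

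Tlr1 values have to be read with those of Tlr6, its neighbour at chr5:64952031-64960097, which pairs with Tlr2 in the same way. Of the 50-base words in the Tlr1 transcript, 15.3% also occur in Tlr6, while those of the other 9 genes, read in the sense direction only, occur in no transcript of another gene. The longest identical stretch is 229 bases inside both coding sequences (bases 1468 to 1696 of the 2385 bases of Tlr1 coding sequence), and reads from it fit both genes equally well. Its first 120 bases are shown for that reason.
Tlr1 and Tlr6, identical coding stretch: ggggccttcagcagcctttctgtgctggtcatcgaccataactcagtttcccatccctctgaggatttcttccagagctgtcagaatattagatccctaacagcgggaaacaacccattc
Tlr1 counts were not whole numbers in 4 libraries (311.92 in 1 of them), as arises when reads are divided between genes. Tlr1 made up 21.5%, 17.9% and 16.2% of the summed Tlr1 and Tlr6 level in general macrophages of normal marrow and 99.5%, 54.6% and 98.7% in niche libraries A, B and C. In metastatic marrow the share was 55.8%, 49.4% and 43.0% in general and 63.5%, 63.1% and 60.9% in niche macrophages. Tlr6 had 7 and 13 counts in niche libraries A and C of normal marrow and 942 in B. With the counts of both genes summed, a fit added after the data were seen, the populations of normal marrow overlapped and differed by 0.38 ± 0.52 (edgeR adjusted p = 0.796). The Tlr1 share did not overlap between the populations of normal marrow, whereas the sum of both genes did, at 50.2 to 103 CPM in general and 50.01 to 116 CPM in niche macrophages.

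**Figure D2:**
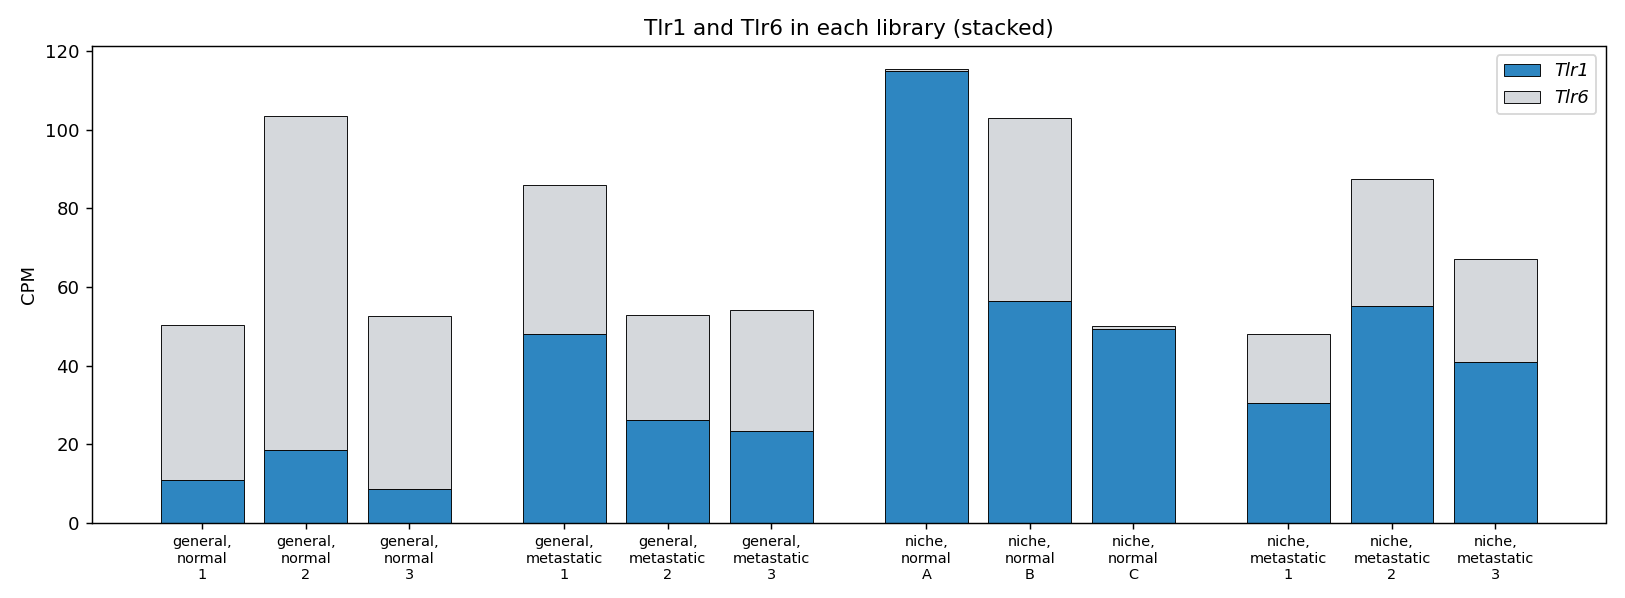
Levels of Tlr1 and Tlr6 stacked in each of the 12 libraries, in CPM. The Tlr1 part is smallest in the 3 general libraries of normal marrow (16.2% to 21.5% of the sum) and takes nearly the whole bar in niche libraries A and C.

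Tlr2, the common partner of Tlr1 and Tlr6 (chr3:83836272-83841767, minus strand), had 71.8 to 124 CPM in general and 54.2 to 115 CPM in niche macrophages of normal marrow. In metastatic marrow it had 79.9, 83.5 and 90.2 CPM in general and 53.4, 55.4 and 50.5 CPM in niche macrophages. The 2 metastatic groups were tight and did not overlap, yet the difference of -0.67 ± 0.45 did not pass (edgeR adjusted p = 0.859). Tlr4, the lipopolysaccharide receptor (chr4:66827584-66930284, plus strand), had 103 to 172 CPM in all 6 general libraries and ranged from 129 to 366 CPM in niche macrophages of normal and from 121 to 358 CPM in those of metastatic marrow. Its niche libraries spread more widely than its general ones, and the differences of 0.79 ± 0.41 and 0.54 ± 0.41 did not pass (edgeR adjusted p = 0.294 and 0.966). Ly96, the lipopolysaccharide-binding partner of Tlr4, did not pass the filter on low counts and was not tested. Named here after its values were seen, it had 193 counts in 1 general library of normal marrow, 174 in 1 of metastatic marrow, 1 in 1 niche library of normal marrow and 0 in every other library.

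Of the endosomal receptors, Tlr13, which in the mouse recognises bacterial ribosomal RNA, kept the narrowest spread among libraries. It lies at chrX:106143204-106160493, plus strand. In normal marrow it had 232, 213 and 234 CPM in general and 191, 125 and 98.9 CPM in niche macrophages. In metastatic marrow the levels were 139, 215 and 184 CPM in general and 97.9, 117 and 85.6 CPM in niche macrophages. In each state of the marrow every niche library was below every general library. The differences were -0.71 ± 0.33 and -0.84 ± 0.33 and did not pass in either state (edgeR adjusted p = 0.259 and 0.509). Averaged over both states, a comparison added after the data were seen, the difference was -0.77 ± 0.24 (edgeR adjusted p = 0.0680) and also missed the threshold. So did every one of the 10 genes in that comparison, where 4.21% of all genes were called, 2.59% higher and 1.62% lower. Tlr13 moved in the same direction as the monocyte and neutrophil sums given above, and their part in it was not tested.

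Tlr8, a receptor for products of RNA breakdown, lies next to Tlr7 on chrX:167242696-167264329, minus strand. It had 96.6, 150 and 73.9 CPM in general and 193, 164 and 244 CPM in niche macrophages of normal marrow. In metastatic marrow it had 80.0, 54.4 and 47.3 CPM in general and 133, 64.2 and 42.8 CPM in niche macrophages. The populations were separate in normal marrow and overlapped in metastatic marrow. The difference in normal marrow was 0.90 ± 0.45 (edgeR adjusted p = 0.277).

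Tlr7, the receptor for single-stranded RNA (chrX:167304929-167330558, minus strand), had 74.7 to 121 and 64.5 to 83.2 CPM in general macrophages of normal and metastatic marrow and 62.8 to 148 and 74.8 to 184 CPM in niche macrophages. Its difference between populations was 0.14 ± 0.44 in normal and 0.99 ± 0.45 in metastatic marrow (edgeR adjusted p = 0.937 and 0.558). Tlr9, the receptor for unmethylated CpG DNA (chr9:106222598-106226883, plus strand), had 10.2 to 46.4 CPM in the 6 general libraries. In niche libraries A, B and C of normal marrow it had 1, 99 and 958 counts (0.0812, 4.92 and 48.1 CPM), and in those of metastatic marrow 522, 2 and 626 counts (26.4, 0.0874 and 23.1 CPM). Niche macrophages thus held both the highest and the lowest Tlr9 level of the series, so no difference could be resolved. The standard errors of its log2 fold changes were 1.63 to 1.64 in the 4 comparisons of groups.

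Unc93b1, which carries the nucleic acid receptors to endosomes (chr19:3935186-3949340, plus strand), had 104 to 178 CPM in general and 130 to 209 CPM in niche macrophages of normal marrow. In metastatic marrow it had 120, 131 and 148 CPM in general and 66.6, 132 and 60.2 CPM in niche macrophages. The populations overlapped in both states, with differences of 0.21 ± 0.38 and -0.62 ± 0.38 (edgeR adjusted p = 0.870 and 0.791). Myd88 (chr9:119335934-119341411, minus strand) had 30.5 to 80.6 CPM in the general libraries, 2.84, 73.3 and 63.7 CPM in niche libraries A, B and C of normal marrow, and 22.6 to 50.6 CPM in those of metastatic marrow. The low value in A came from 35 counts. Its exons overlap those of Acaa1a on the other strand, and whether counting used the strand is not given in the sources used here, so reads of the overlap may not be told apart.

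**Figure D3:**
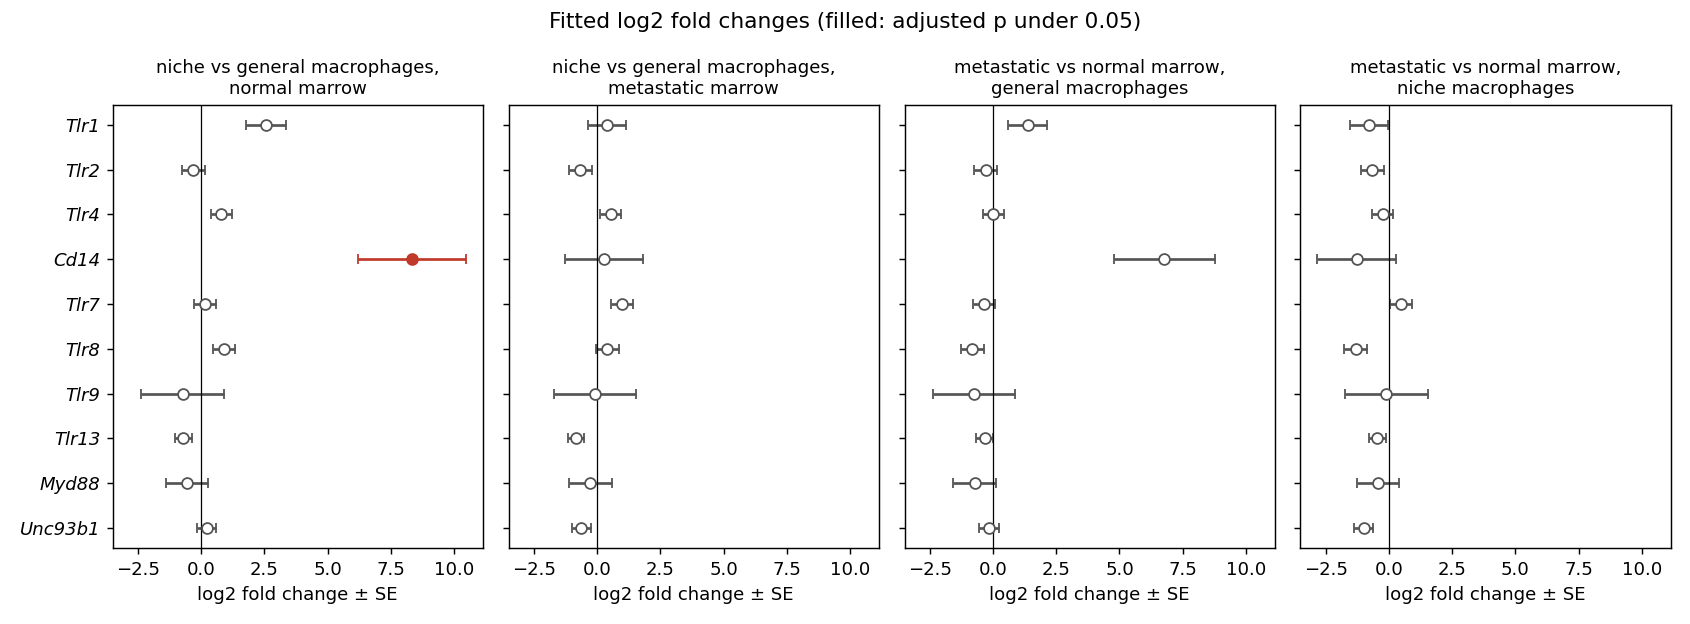
Log2 fold changes with standard errors for the 10 genes in the 4 comparisons of groups, from the edgeR fit over 12 libraries. Cd14 in normal marrow is the only called value, and most of the others lie within 1 unit of 0.

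In metastatic marrow none of the 10 genes was called by edgeR between populations, where 0.831% of all tested genes were (0.574% higher). The ranges did not overlap for 2 of the 10, Tlr2 and Tlr13, both lower in niche macrophages, against 17.2% of all tested genes, 8.9% lower. An unadjusted p under 0.05 was reached by 2 of the 10 (Tlr7 and Tlr13), against 8.6% of all tested genes, and the median log2 fold change was 0.10, against 0.04 for all tested genes. DESeq2 and limma-voom also called none of the 10, and 5.08% and 1.38% of all genes.

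Metastasis was compared with normal marrow within each population. In general macrophages none of the 10 genes was called by edgeR, where 0.0155% of all tested genes were, and 1 had an unadjusted p under 0.05 (5.12% of all tested genes). DESeq2 called 1 of the 10, Cd14, and 1.55% of all genes, and limma-voom none of the 10 and 0.179% of all genes. Cd14 and Tlr1 were higher in every library of metastatic marrow, 2 of the 10 against 13% of all tested genes without overlap (7.35% higher and 5.67% lower). For Cd14 the fitted difference was 6.78 ± 2.00 (edgeR adjusted p = 0.944), and the ratio of levels from 1004 against 6 counts was 112 (95% exact Poisson interval 51.3 to 306, counting error only). This comparison and that of the populations in normal marrow share the 3 general libraries of normal marrow in which Cd14 was nearly absent. For Tlr1 the difference was 1.36 ± 0.76 (edgeR adjusted p = 0.975), and with Tlr6 counts added it turned to -0.10 ± 0.52. The other 8 genes had differences from -0.82 to 0.01, the lowest being that of Tlr8, and their median with Cd14 and Tlr1 included was -0.32, against -0.01 for all tested genes.

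In niche macrophages, too, none of the 10 genes was called by edgeR between metastatic and normal marrow, where 0.00776% of all tested genes were, and 2 had an unadjusted p under 0.05 (12.7% of all tested genes). The fit without niche library B of normal marrow called 66 of 14200 genes and that without C 26 of 14222, against 1 of 12882, with none of the 10 among them. DESeq2 called 1 of the 10, Tlr8, and 10.6% of all genes, and limma-voom called none of the 10 and 0.0854% of all genes. The Tlr8 levels given above did not overlap, 1 of the 10 against 12.8% of all tested genes (7.13% lower and 5.66% higher), with a difference of -1.32 ± 0.45 (edgeR adjusted p = 0.381). Unc93b1 differed by -0.998 ± 0.387 (edgeR adjusted p = 0.381), with library 2 of metastatic marrow inside the range of normal marrow. The log2 fold change was negative for 9 of the 10 genes, Tlr7 being the exception at 0.48 ± 0.44, and the median was -0.56, against -0.17 for all tested genes. Cd14 differed by -1.28 ± 1.56 (edgeR adjusted p = 0.871), a value that depends on the 1 count in library 3. The summed macrophage markers were lower in niche macrophages of metastatic than of normal marrow. The 9 tested B and plasma cell markers had a median log2 fold change of -2.27, with 3 positive. Ms4a1 averaged 72.96 against 352 CPM and Pax5 38.9 against 189 CPM, while Jchain averaged 711 against 233 CPM. The summed monocyte markers were higher, which lay with Chil3 (means of 8525 against 4153 CPM). Of the 10 monocyte markers 5 had a positive log2 fold change, and Ccr2 averaged 147 against 264 CPM. The part of these markers in the values of the 10 genes was not tested.

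A difference in the effect of metastasis between the populations passed for none of the 10 genes in edgeR's interaction test, which called 0% of all tested genes. DESeq2 called 1 of the 10, Cd14, and 4.55% of all genes, and limma-voom none of the 10 and 0% of all genes. An unadjusted p under 0.05 was reached by 1 of the 10, against 7.89% of all tested genes. That gene was Cd14, whose metastasis effect was lower in niche macrophages by 8.06 ± 2.48 on the log2 scale (edgeR adjusted p = 0.452). For Tlr1 the difference was -2.17 ± 1.07 (edgeR adjusted p = 0.636). Averaged over both populations, a comparison added after the data were seen, metastasis called none of the 10 genes and 0.0543% of all genes, 0.0466% lower. The smallest p of the 10 was that of Tlr8, at -1.07 ± 0.32 (edgeR adjusted p = 0.273).

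To compare levels between genes, CPM was divided by the length of each gene's merged exons in kilobases, taken over protein-coding transcripts of the GENCODE basic set. In general macrophages of normal marrow the order was Unc93b1 (65.9 CPM per kb, SD 17.5, n = 3), Tlr13 (55.8, SD 2.77), Myd88 (35.4), Tlr2 (34.5), Tlr8 (31.2), Tlr4 (26.7), Tlr7 (23.0), Tlr9 (8.49), Tlr1 (4.04) and Cd14 (0.0666). Neighbours in that order were separate in range only after Tlr13, Tlr7 and Tlr1, so that Unc93b1 and Tlr13 led, 5 genes followed together, and Tlr9, Tlr1 and Cd14 came last. With the exons of every annotated transcript, a length added after the data were seen, Tlr13 (52.6 CPM per kb) and Unc93b1 (49.3) changed places and Myd88 (26.96) came 5th. The merged exons then grew from 2266 to 3031 bases for Unc93b1 and from 1960 to 2576 for Myd88, with retained-intron transcripts included for both. In general macrophages of metastatic marrow Unc93b1 (58.8 CPM per kb) and Tlr13 (44.2) again led, followed by Tlr2 (28.0), Tlr4 (26.9), Myd88 (21.3), Tlr7 (17.9), Tlr8 (17.7), Tlr1 (10.4), Cd14 (7.83) and Tlr9 (5.03), with neighbours separate only after the first and after the second. With the exons of every transcript, Unc93b1 and Tlr13 overlapped in this group and neighbours were separate after the second and the fourth. In general macrophages of normal marrow Unc93b1 was then no longer separate from Tlr2, while Tlr13 still was.

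In niche macrophages no neighbours in the order were separate. In normal marrow Unc93b1 (76.2 CPM per kb) was followed by Tlr8 (58.3), Tlr4 (46.3), Tlr13 (34.1), Tlr2 (27.8), Tlr7 (25.3), Myd88 (23.8), Tlr1 (23.6), Cd14 (23.1) and Tlr9 (5.09). Tlr13 thus stood 4th here and in the other niche group, after 2nd place in both general groups (with the exons of every transcript 4th in both niche groups, 1st in general macrophages of normal and 2nd in those of metastatic marrow). In niche macrophages of metastatic marrow Tlr4 (39.1 CPM per kb), Unc93b1 (38.1) and Tlr7 (35.4) came first (38.5, 28.5 and 34.4 with the exons of every transcript), ahead of Tlr13 (24.7), Tlr8 (23.3), Myd88 (17.8), Tlr2 (17.6), Tlr1 (13.5), Cd14 (9.50) and Tlr9 (4.75).

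**Figure D4:**
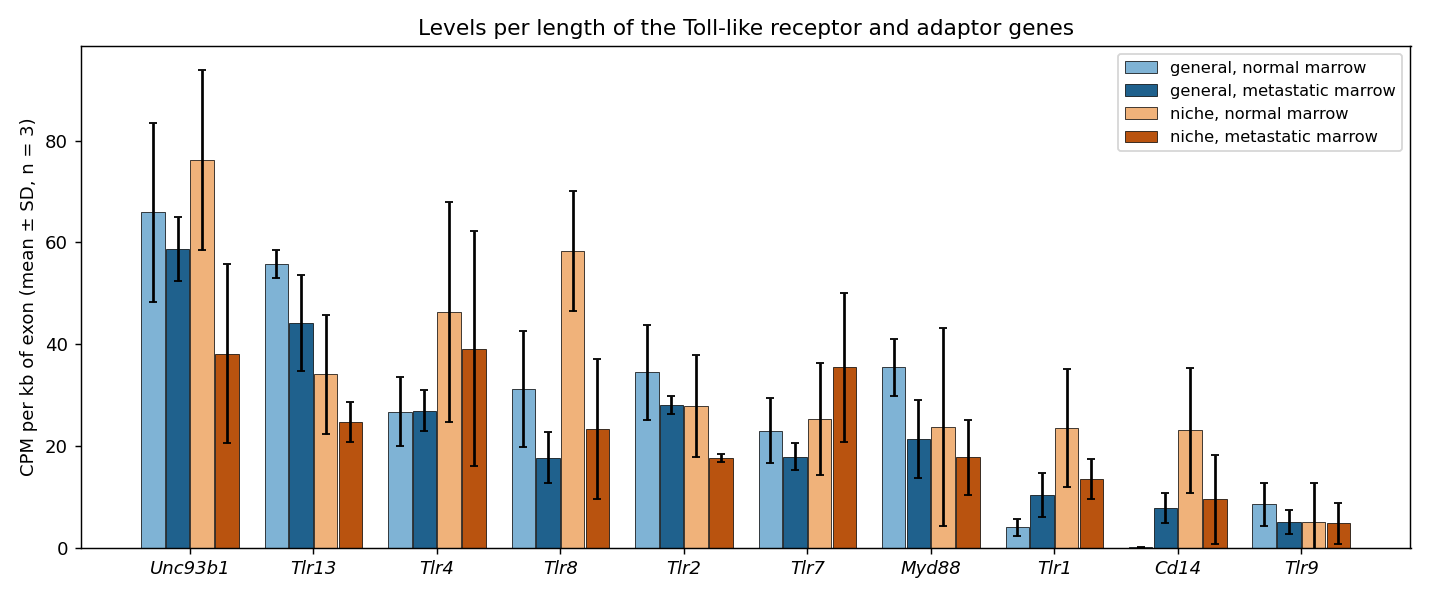
Mean level of each gene in CPM per kilobase of merged exons, by group (error bars are SD, n = 3). Unc93b1 and Tlr13 lead in both general groups, and Cd14 is at 0.0666 CPM per kb in general macrophages of normal marrow.

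A library with at most 10 counts beside another of the same group with at least 100 was found for 2 of the 10, Tlr9 and Cd14, against 33.6% of the 5779 genes in the same range of mean level (16.6 to 190 CPM). The biological coefficient of variation, the fitted relative spread between libraries of a group, was 0.359 for Tlr13, which 6.27% of tested genes undercut, 0.397 for Unc93b1 and 0.407 for Tlr4. It was 1.27 for Tlr9 and 1.22 for Cd14, near the common value of 1.297. The comparisons on Tlr13, Unc93b1 and Tlr4 were the most precise of the 10, with standard errors of 0.33 to 0.41 between groups.

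Across the 12 libraries, the strongest Pearson correlations of log2 CPM among the 10 genes were 0.77 for Tlr9 with Myd88, 0.75 for Tlr2 with Tlr13, 0.75 for Tlr2 with Unc93b1 and 0.70 for Tlr1 with Cd14. Libraries of 1 group share their population and state of the marrow, so these values describe the 12 libraries only. Among 8144 tested genes whose mean reached 10 CPM, the 2 genes most like each one were Ccnd1 (0.92) and Cpox (0.91) for Tlr1, Ago2 (0.86) and Adnp (0.84) for Tlr2, and Rnf213 (0.95) and Zbtb46 (0.89) for Tlr4. They were Bst1 (0.97) and Midn (0.96) for Tlr9, Myadm (0.93) and Dennd5a (0.89) for Tlr13, and Snord17 (0.89) and Nipal3 (0.88) for Tlr8. Tlr7 was most like Gm18852 (0.85) and Gm43679 (0.84), Cd14 most like Pitpnm2 (0.96) and Psmd5 (0.88), Myd88 most like Ccdc126 (0.99) and Stat5b (0.97), and Unc93b1 most like Mpp5 (0.90) and Cybc1 (0.89). None of the 10 genes was among the genes most like another.

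The other genes of the pathway were taken from lists of 107 symbols, of which 102 were in the table and 96 were tested. Between populations 5 of the 96 rose and none fell in niche macrophages of normal marrow (5.21%), and 3 rose and none fell in metastatic marrow (3.13%). Of all tested genes, 2.47% were called in normal marrow (1.5% higher) and 0.831% in metastatic marrow (0.574% higher). None of the 96 was called for metastasis in either population. Ctsb, an endosomal protease that cuts the nucleic acid receptors into their active form, averaged 177 CPM (SD 53.2, n = 3) in the general libraries of normal marrow and 1114 CPM (SD 200, n = 3) in the niche ones. It rose by 2.65 ± 0.29 there and by 1.62 ± 0.28 in metastatic marrow (edgeR adjusted p = 2.42e-05 and 0.00441). Lgmn, the protease asparagine endopeptidase with the same kind of role, went from 13.03 CPM (SD 15.5, n = 3) to 325 CPM (SD 81.8, n = 3) in normal marrow. The rise was 4.64 ± 0.78 (edgeR adjusted p = 0.00189). Lgmn did not pass in metastatic marrow (2.64 ± 0.71, edgeR adjusted p = 0.126). There 5 of 16 alternatives did call it (no low-count filter, DESeq2, limma-voom, only the 6 libraries compared, and 9 libraries with a replicate block). The other cathepsins of the list, Ctsk, Ctsl and Ctss, were not called in either state. Their means in general and niche macrophages of normal marrow were 4.67 and 0.0872, 14.3 and 7.11, and 119 and 74.7 CPM. In metastatic marrow they were 5.09 and 2.34, 19.6 and 25.6, and 84.2 and 76.3 CPM.

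Pld3, a lysosomal exonuclease that degrades the DNA and RNA these receptors detect, rose by 3.48 ± 0.66 and 2.87 ± 0.64 (edgeR adjusted p = 0.00549 and 0.0343). Mertk, a receptor for apoptotic cells that restrains Toll-like receptor signals, averaged 2.22 CPM (SD 2.58, n = 3) in the general libraries of normal marrow and 296 CPM (SD 54.96, n = 3) in the niche ones. It rose by 7.04 ± 0.96 and 6.10 ± 0.92 (edgeR adjusted p = 0.000208 and 0.000993) and is one of the 11 macrophage markers summed above. Irf8, a transcription factor of monocytes and dendritic cells, rose by 1.77 ± 0.46 in normal marrow (edgeR adjusted p = 0.0478) and had a difference of -0.10 ± 0.45 in metastatic marrow (edgeR adjusted p = 1.00). In normal marrow the plasmacytoid dendritic cell markers in the table summed to 71.1 to 186 CPM in general and 224 to 468 CPM in niche macrophages, and those of conventional dendritic cells to 13.1 to 29.8 and 26.04 to 140 CPM. In metastatic marrow the sums were 45.8 to 91.9 and 94.4 to 153 CPM, and 3.62 to 23.9 and 15.3 to 74.1 CPM. None of the 4 and 6 of these markers tested was called in either state, and their part in the Irf8 values was not tested. Mertk and Ctsb were called in both states under every alternative and every library left out. When each library compared was left out in turn, Lgmn and Pld3 kept their calls in normal marrow in 6 of 6 fits (highest edgeR adjusted p = 0.0158 and 0.0336), but Lgmn was not called with limma-voom or with only the 6 libraries compared. The call on Irf8 was kept in 1 of 6 fits, without niche library B (edgeR adjusted p = 0.0424 to 0.213), and that on Pld3 in metastatic marrow in 1 of 6, without niche library 2 (edgeR adjusted p = 0.0331 to 0.222). Pld3 in metastatic marrow was also not called with limma-voom, with only the 6 libraries compared, or with 9 libraries, with or without a replicate block. Irf8 in normal marrow was called in 4 of 14 alternatives, and was lost also with RLE scaling, no low-count filter, limma-voom, only the 6 libraries compared, and 451 genes removed.

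By list, the trafficking and processing genes had 3 called of 20 in normal and 2 of 20 in metastatic marrow, the list of co-receptors 1 of 6 in each, and the signalling genes 1 of 27 and 0 of 27, against the same 2.47% and 0.831% of all tested genes. The called gene of the co-receptor list was Mertk, which is not a co-receptor of the Toll-like receptors in the way of Cd14, and the other 5 tested (Ly86, Lbp, Cd36, Itgam and Scarb1) were not called. None of 5 other adaptors, 17 negative regulators and 15 target genes was called in either state. In normal marrow the adaptor Tirap, which bridges Myd88 to Tlr2 and Tlr4, had a difference of -1.26 ± 0.58 and the receptor chaperone Hsp90b1 one of 0.90 ± 0.28 (edgeR adjusted p = 0.256 and 0.116). In metastatic marrow Tirap, whose exons overlap those of Srpr on the other strand, differed by 0.33 ± 0.57 (edgeR adjusted p = 1.00). Il1b, an inflammatory cytokine, averaged 159 CPM (SD 37.1, n = 3) in the general libraries of normal marrow and 25.6 CPM (SD 23.0, n = 3) in the niche ones. The means in metastatic marrow were 61.7 CPM (SD 30.02, n = 3) and 15.8 CPM (SD 3.90, n = 3). The ranges did not overlap in either state, and the differences of -2.63 ± 0.91 and -1.97 ± 0.89 did not pass (edgeR adjusted p = 0.162 and 0.557). For all tested genes the share without overlap was 18.9% in normal and 17.2% in metastatic marrow. Cd86, of the same list, was higher in niche macrophages without overlap in either state. In normal marrow it had 1.10 to 14.2 CPM in general and 26.3 to 54.3 CPM in niche macrophages. The ranges in metastatic marrow were 7.33 to 18.8 and 20.7 to 67.7 CPM. Of the 15 target genes tested, 8 had a positive log2 fold change in each state, with medians of 0.08 and 0.16. Acod1, which makes itaconate in activated macrophages, had 993 counts over the general and 2 over the niche libraries of normal marrow, and 312 and 0 counts in metastatic marrow (edgeR adjusted p = 0.187 and 0.364). In the comparison averaged over both states, Il1b and Acod1 were both called lower in niche macrophages (edgeR adjusted p = 0.0461 and 0.0260), 2 of the 15 target genes tested, where 4.21% of all genes were called and 1.62% called lower. That comparison and these 2 genes were picked out after the values were seen.

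**Figure D5:**
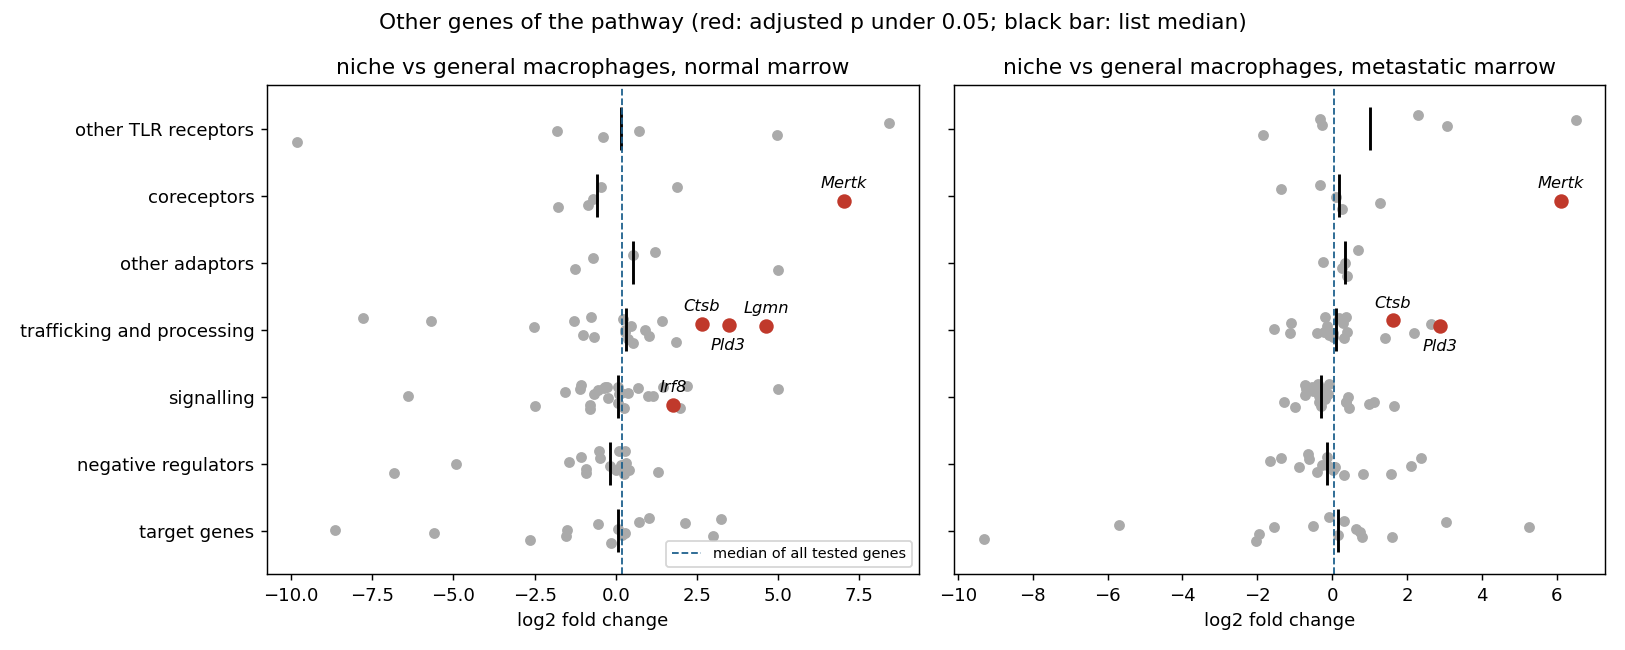
Log2 fold changes between populations of the 96 other pathway genes by list, in normal and metastatic marrow (points are genes, red points passed the test, black bars are list medians, the dashed line is the median of all tested genes). The called genes Mertk, Ctsb, Lgmn, Pld3 and Irf8 are all higher in niche macrophages of normal marrow.

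Of the remaining Toll-like receptors, Tlr3, Tlr5, Tlr6, Tlr11 and Tlr12 each had 13 counts or fewer in at least 1 library, whereas the related receptor Cd180 was present throughout. Tlr3, the receptor for double-stranded RNA and the one that does not use Myd88, had 1, 2 and 1 counts in general and 1, 1206 and 547 in niche macrophages of normal marrow, and 144, 2 and 83 against 387, 497 and 4 counts in metastatic marrow. In each of the niche groups 2 libraries held the transcript and 1 all but lacked it. Tlr5 had 0 to 339 counts, Tlr11 0 to 292 and Tlr12 0 to 328, with no counts of Tlr11 in any niche library of normal marrow. Cd180 had 346 counts or more in every library, with 24.0 to 83.3 CPM in the general libraries and 17.5 to 168 CPM in the niche libraries. The exons of Cd180 overlap those of Mast4 on the other strand, and those of Tlr3 overlap Gm45542 on the other strand. Reads of these overlaps may not be told apart, as for Myd88. None of these 6 genes, Tlr6 included, was called in any of the 5 comparisons by edgeR, and in normal marrow 2 of the 6 had an unadjusted p under 0.05, against 19% of all tested genes.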

How the data were processed

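RNA was sequenced from 12 libraries of sorted marrow macrophages, 3 for each of 4 groups. The authors deposited 1 table of expected counts for 18467 gene symbols, not normalized (unit taken from the values, of which 73.9% were whole). The submitters' processing notes name STAR 2.7.3a, Partek, DESeq2 1.40.2, R 4.3.1 and mm10, without roles. The counting program and its use of strand are not given in the sources used here. Columns of niche macrophages from normal marrow carry other replicate numbers than the titles and were mapped to the group only (libraries A, B and C).

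Counts were rounded, filtered with filterByExpr, scaled by TMM and fitted in edgeR 4.0.16 (R 4.3.3) with 4 group means over 12 libraries. P-values of quasi-likelihood F-tests were Benjamini-Hochberg adjusted across 12882 genes. Standard errors were computed from the F statistic. Intervals and the limit of 3 counts describe counting error alone, because the reads carry no molecular identifiers. Alternatives were RLE scaling, library totals, no filter, limma-voom with sample weights (limma 3.58.1), DESeq2 1.42.0, the 6 libraries compared, a replicate block, removal of 451 genes of small RNAs, mitochondria, haemoglobin and immunoglobulins, and each library left out in turn. The procedure was tested on simulated data. Coordinates, lengths and shared words come from GENCODE M21 (GRCm38), promoters from RefSeq.

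All 10 genes are named. Of the other pathway lists, every gene called in the 5 comparisons was named, all other Toll-like receptors with Cd180, and some of the 4 smallest p of a list in normal marrow. Ly96, the uncalled genes of the co-receptor list, Cd86, Pld4, Ctsk, Ctsl and Ctss were named without regard to this rule. The genes and lists were chosen with earlier results of these data known. Chi-square statistics of library pairs within a group were 139 to 411 per degree of freedom, so no 2 libraries agreed within sampling noise. Deviations from group means of same-numbered libraries correlated at -0.01 to 0.03 (9 pairs), and those of unlike-numbered libraries at -0.03 to 0.01 (18 pairs). Values this near 0 cannot show whether mice were shared. The numbers were not taken to pair the mice.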

Additional observations from a re-analysis of the deposited data

How the results depend on the processing

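Of the 10 genes, the count called between populations in normal marrow, 1 in the reported fit, was 2 with DESeq2 (Tlr1 and Cd14), 0 with only the 6 libraries compared, and 0 to 1 when leaving out each library in turn. DESeq2 called 1 gene for metastasis in general macrophages (Cd14, adjusted p = 0.000388), 1 in niche macrophages (Tlr8, adjusted p = 0.0452) and 1 for the difference between populations (Cd14, adjusted p = 0.00160), where edgeR called 0. DESeq2 also called more genes in all, 2167, 628, 205, 1326 and 558 in the 5 comparisons against 318, 107, 2, 1 and 0. The cause was not tested.

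Directions turned only for values that did not pass. Between populations in normal marrow, Tlr7 was -0.034 with limma-voom and -0.24 to 0.39 when leaving out libraries. In metastatic marrow, Cd14 was -2.56 with limma-voom and Tlr9 0.15 with library totals, and leaving out libraries gave -0.48 to 0.86 for Cd14, -0.60 to 0.50 for Tlr9, -0.63 to 0.063 for Myd88, -0.060 to 0.82 for Tlr4 and -0.19 to 0.70 for Tlr8. For metastasis in general macrophages, Tlr4 was -0.060 with RLE scaling, -0.057 with DESeq2 and -0.18 to 0.13 when leaving out libraries, and Tlr1 was -0.10 with Tlr6 added. In niche macrophages, Tlr9 was 0.14 with library totals, 0.29 with limma-voom and 0.050 with 6 libraries, Myd88 was 0.093 with limma-voom, and leaving out libraries gave -0.69 to 2.705 for Tlr9, -0.99 to 0.053 for Myd88 and -0.85 to 0.12 for Tlr4. For the difference between populations, Tlr13 was 0.10 with library totals and 0.052 with limma-voom, and leaving out libraries gave -0.33 to 0.16 for Tlr13, -0.86 to 0.10 for Tlr4 and -0.26 to 0.78 for Myd88. Library totals moved the median of all genes in the comparison of populations in metastatic marrow from 0.04 to 0.29. With 9 libraries and the replicate number as a block, 0 of the 10 genes were called between populations in metastatic marrow and 0 for metastasis in general macrophages, as without the block, and 117 against 104 of all genes in the former. Fits without a library filtered low counts anew and tested 13851 to 14250 genes, and the effect of the genes tested was not tested apart from that of the library. Leaving out a library leaves 2 in its group, whose spread is then pooled with the other groups. Of the 5 other pathway genes that rose in normal marrow, 3 to 5 were called under the alternatives, and DESeq2 called 10 of the 96 higher and 6 lower, against 17.5% of all genes. In metastatic marrow, 2 or 3 of the 3 were. Counts of 1 to 4 give Cd14 and Tlr9 little precision in single libraries, and these were not always the shallower ones: niche library 3 of metastatic marrow had 1 Cd14 count in 21579543, library 2 had 650 in 20952846. Leaving out general library 1, 2 or 3 took the 318 genes called between populations in normal marrow to 176, 178 and 184, and leaving out niche library 1 or general library 2 took the 107 in metastatic marrow to 66 and 70. The 2 called for metastasis in general macrophages became 0 without any 1 of the 6 libraries, and the 0 for the difference between populations became 16 without niche library B and 1 without general library 2 of metastatic marrow.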
